A study of Mus musculus with 8 samples.

Results

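The acyl-CoA synthetases of brown adipose tissue (BAT) were examined as 10 listed genes: the long-chain enzymes Acsl1, Acsl3, Acsl4, Acsl5 and Acsl6, the short-chain enzymes Acss1, Acss2 and Acss3, and the medium-chain enzymes Acsf2 and Acsm3. They were found by gene symbol among 31053 Ensembl identifiers counted by bulk RNA-seq, all 10 had a row, and 9 had enough counts to be tested. BAT came from 4 WT and 4 Ucp1Δ/Δ mice of the C57BL6/J strain, aged 10 weeks by the labels (the study's text gives a younger age). The labels name no treatment. The study's methods give all mice as males and place tissue harvest after fasting, in a passage on several mouse models. Whether the fast covered the mice compared here is not made clear. Ucp1Δ/Δ mice, labelled ATGLKO, are homozygous for floxed Pnpla2 (fl/fl, line B6N.129S-Pnpla2tm1Eek/J) with a Cre transgene driven by the Ucp1 promoter (line B6.FVB-Tg(Ucp1-cre)1Evdr/J), so that adipose triglyceride lipase (ATGL) is lost in thermogenic adipocytes and kept in the other cells of the depot. Whether the WT mice carried floxed alleles is not given in the sources used here. The comparison asks what happens in BAT when its adipocytes cannot break down triglyceride through ATGL.

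Fatty acids are chemically inert until an acyl-CoA synthetase couples them to coenzyme A in a reaction that consumes ATP. The resulting acyl-CoA can be oxidised in mitochondria, esterified into glycerolipids, elongated or used to modify proteins, and enzymes of the family differ in chain length preference and in the membrane or compartment that holds them. In brown adipocytes, ACSL1 is known as a major long-chain enzyme feeding fatty acids to oxidation and heat production, and the ACSS enzymes activate acetate and propionate.

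Libraries held 2017697 to 3115956 counts, of which mitochondrially encoded genes took 38.4% to 45.6%, and values below are CPM, counts scaled to library size with TMM factors. A count of 3 corresponded to 0.933 to 1.53 CPM, and such limits cover counting error only. Pnpla2, the deleted gene, measured 2837, 2702, 2961 and 3152 CPM in WT mice 1 to 4 and 514, 448, 403 and 531 CPM in Ucp1Δ/Δ mice 1 to 4. It was lower in all Ucp1Δ/Δ libraries, with a log2 fold change (log2FC, Ucp1Δ/Δ over WT) of -2.62 ± 0.17 (SE) and an adjusted p of 1.97e-07 (edgeR quasi-likelihood test, Benjamini-Hochberg over the 8930 genes tested, as for every adjusted p of a gene below). The labels name the stromal vascular fraction as cell type, whereas the adipocyte genes were abundant: the summed CPM of 6 general adipocyte markers, Adipoq and Plin1 among them, was 10239 to 11868 in WT and 7013 to 9948 in Ucp1Δ/Δ mice. The summed CPM of 12 macrophage markers was 97.2 to 148 in WT and 903 to 1471 in Ucp1Δ/Δ mice. Skeletal muscle markers varied between libraries of both genotypes, summing to 1701, 118, 27.0 and 801 CPM in WT and 364, 2317, 77.3 and 1068 CPM in Ucp1Δ/Δ mice. The labels number the libraries, and the study counts 4 mice per group.

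The upstream DNA of 3 genes that were lower in Ucp1Δ/Δ mice (Acsl1, Acsl5, Acsm3) and of Acsl4, which was not, is printed as examples. The other windows of the family were searched too and are not printed. Counts per gene do not show which start the transcripts used. Each run is the 250 bases before a RefSeq start in GRCm38.p6, read 5′ to 3′ on the strand of the gene, and none of its bases lies in an exon of that gene in GENCODE M21. RefSeq gives Acsl1 more than 1 start, and the downstream one (chr8:46490716-46490965, plus strand), inside the gene, is shown. The others are Acsl5 (chr19:55253119-55253368, plus strand), Acsm3 (chr7:119760673-119760922, plus strand) and Acsl4 (chrX:142390536-142390785, minus strand). The Acsl5 window also lies inside the annotated gene. Capitals mark matches to CCAAT, the box bound by NF-Y, or to TCACNCCAC, the core of a sterol response element bound by SREBP, on either strand.
Acsl1: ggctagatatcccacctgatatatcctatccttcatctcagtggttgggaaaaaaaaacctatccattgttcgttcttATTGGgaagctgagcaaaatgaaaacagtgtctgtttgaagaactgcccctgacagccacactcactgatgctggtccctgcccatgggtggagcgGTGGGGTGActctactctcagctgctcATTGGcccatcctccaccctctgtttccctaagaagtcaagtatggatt
Acsl5: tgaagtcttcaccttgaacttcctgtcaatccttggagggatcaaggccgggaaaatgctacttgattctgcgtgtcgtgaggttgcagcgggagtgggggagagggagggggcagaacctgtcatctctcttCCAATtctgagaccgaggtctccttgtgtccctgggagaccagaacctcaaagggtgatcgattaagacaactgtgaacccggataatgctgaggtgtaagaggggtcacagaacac
Acsm3: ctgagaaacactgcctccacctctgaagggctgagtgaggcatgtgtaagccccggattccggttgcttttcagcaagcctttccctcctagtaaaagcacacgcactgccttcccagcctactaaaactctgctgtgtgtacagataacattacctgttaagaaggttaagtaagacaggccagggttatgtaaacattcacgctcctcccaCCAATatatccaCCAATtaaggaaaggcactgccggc
Acsl4: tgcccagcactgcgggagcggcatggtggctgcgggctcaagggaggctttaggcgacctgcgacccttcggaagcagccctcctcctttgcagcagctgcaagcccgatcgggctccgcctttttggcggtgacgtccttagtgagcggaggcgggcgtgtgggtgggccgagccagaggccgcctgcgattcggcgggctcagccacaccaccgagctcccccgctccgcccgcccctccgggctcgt
The Acsl1 window holds the sterol element core, written GTGGGGTGA on this strand and 76 bases before the start, between CCAAT boxes that begin 172 and 49 bases before it. CCAAT stands 117 bases before the Acsl5 start and 37 and 25 bases before the Acsm3 start, and the Acsl4 window holds neither motif. The matches did not follow the test results over the family. CCAAT also stands 15 bases before the start of Acsl3, which did not pass the test, and in windows of Acsl6, which was not tested. Among the genes that fell, Acss2 has a CCAAT box 73 bases before its start. The windows of Acss1, Acsf2 and the upstream Acsl1 start hold none of the motifs searched. Unlike the printed windows, those of Acss2, Acss1 and Acsf2 have 95, 171 and 85 bases in annotated exons of the same gene. The Acss2 box lies inside the annotated gene, and the Acsl6 windows also hold exonic bases. Of 32851 mouse windows of the same length, 1.05% hold TCACNCCAC and 33.8% hold CCAAT, so a CCAAT match is common. The motifs searched also included TCAAGGTCA (estrogen-related receptors, 0.387% of windows), the PPAR direct repeat (0.338%) and the E-box CACGTG (6.02%). None of these occurred in the printed windows. In the unprinted windows of the family, TCAAGGTCA occurred only in an Acsl6 window, 167 bases before the start and on the opposite strand. The PPAR repeat and the E-box occurred in none of them. Promoters were listed for 9 of the 10 genes. A match describes letters only, since no binding was measured.

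Transcripts of 7 acyl-CoA synthetases were lower in BAT of Ucp1Δ/Δ mice and none was higher. The genes that fell were Acsl1, Acsl5, Acss1, Acss2, Acss3, Acsf2 and Acsm3, with log2FC from -1.47 for Acsl5 to -0.65 for Acss1. Acsl3 and Acsl4 did not pass the test, and the median log2FC of the 9 tested genes was -0.81, beside -0.0087 over all genes tested. Over all genes, 7.63% were lower and 13.3% were higher at an adjusted p under 0.05, or 21.0% in either direction. No synthetase was higher at an unadjusted p under 0.05 in edgeR, or at an adjusted p under 0.05 in DESeq2 or limma voom. In 6 of the 9 genes every Ucp1Δ/Δ mouse was below every WT mouse, which 9.37% of all genes tested showed. In bulk tissue, fewer cells of a type and less RNA per cell cannot be told apart. The macrophage and adipocyte marker levels given above moved with genotype alongside these genes. How much of the differences they account for was not tested, and the synthetases are set against the adipocyte markers below.

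**Figure D1:**
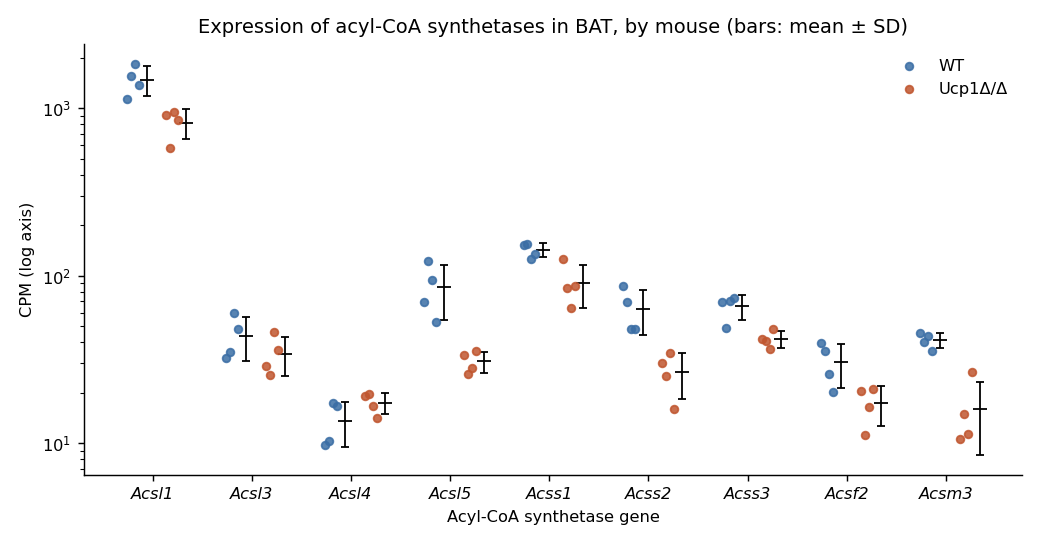
CPM of the 9 tested acyl-CoA synthetases on a log axis, 1 point per mouse, with the mean and SD of 4 mice beside each group. The WT points lie above all Ucp1Δ/Δ points in Acsl1, Acsl5, Acss1, Acss2, Acss3 and Acsm3, and the groups overlap in Acsl3, Acsl4 and Acsf2.

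Acsl1 (chr8:46471037-46536051, mm10) encodes a long-chain synthetase of the mitochondrial outer membrane and endoplasmic reticulum. Its levels were 1138, 1549.7, 1847 and 1370.3 CPM in WT mice 1 to 4 and 906, 581, 945 and 847 CPM in Ucp1Δ/Δ mice 1 to 4. All WT mice were above all Ucp1Δ/Δ mice, and Ucp1Δ/Δ mouse 2 was the lowest. The means were 1476 ± 299 and 819.7 ± 164 CPM (SD, n = 4 each), so that Ucp1Δ/Δ BAT held 55.5% of the WT level. The log2FC was -0.85 ± 0.20 (SE, 95% interval -1.27 to -0.43, adjusted p = 0.00601).

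Acsl5 (chr19:55251938-55297720) encodes a long-chain synthetase found on mitochondria and endoplasmic reticulum. It measured 69.9, 123, 94.2 and 52.7 CPM in WT and 33.6, 25.8, 28.0 and 35.2 CPM in Ucp1Δ/Δ mice. The groups did not overlap, and the WT mice spread more widely than the Ucp1Δ/Δ mice, with a coefficient of variation of 35.9% against 14.6%. Acsl5 had the largest decrease among the 9 genes, to 36.1% of the WT mean (log2FC -1.47 ± 0.24, 95% interval -1.98 to -0.97, adjusted p = 0.000345). It shares 404 exonic bases with Zdhhc6 on the opposite strand, and whether counting used strand is not given in the sources used here. Zdhhc6 itself had a log2FC of -0.56 ± 0.30 (adjusted p = 0.206).

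Acsl3 (chr1:78657825-78707743), a synthetase of endoplasmic reticulum and nascent lipid droplets, measured 32.1, 34.9, 59.4 and 48.1 CPM in WT and 29.0, 25.5, 46.0 and 36.1 CPM in Ucp1Δ/Δ mice. The groups overlapped, and the log2FC of -0.37 ± 0.23 did not pass the test (95% interval -0.87 to 0.13, adjusted p = 0.300). It shares 244 exonic bases with Utp14b on the same strand, which counting by strand would not separate, and Utp14b had a log2FC of 0.29 ± 0.32 (adjusted p = 0.573). Acsl4 (chrX:142317993-142390535), which prefers arachidonate and is known for its part in ferroptosis, measured 9.69, 10.3, 17.4 and 16.7 CPM in WT and 19.1, 19.6, 16.7 and 14.2 CPM in Ucp1Δ/Δ mice. WT mice 1 and 2 were the lowest and the other mice of both genotypes lay between 14.2 and 19.6 CPM. Its log2FC was 0.36 ± 0.24 (95% interval -0.16 to 0.87, adjusted p = 0.338), an interval that includes increases as well as small decreases. Acsl6 (chr11:54303798-54364756), known from brain and erythroid cells, had 2 counts in all, 1 in WT mouse 1 and 1 in Ucp1Δ/Δ mouse 2, and was not tested.

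Acss2 (chr2:155517948-155585724) encodes the cytosolic and nuclear acetyl-CoA synthetase, which turns acetate into acetyl-CoA for lipid synthesis and histone acetylation. Levels were 86.2, 69.9, 48.1 and 47.6 CPM in WT and 30.1, 25.2, 34.7 and 15.9 CPM in Ucp1Δ/Δ mice. The lowest WT mouse was above the highest Ucp1Δ/Δ mouse. The Ucp1Δ/Δ mean was 42.0% of that of WT, with a log2FC of -1.24 ± 0.25 (95% interval -1.77 to -0.71, adjusted p = 0.00206). The gene shares exonic bases with Ggt7, Acss2os and Gss on the opposite strand, of which only Gss was tested (log2FC 0.32, adjusted p = 0.361).

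Acss1 (chr2:150618105-150668500), the mitochondrial acetyl-CoA synthetase, measured 152, 155, 126 and 135 CPM in WT and 126, 84.0, 64.4 and 86.3 CPM in Ucp1Δ/Δ mice. The groups were separated by a small gap, since WT mouse 3 and Ucp1Δ/Δ mouse 1 nearly met. The log2FC was -0.65 ± 0.20 (95% interval -1.08 to -0.23, adjusted p = 0.0290). Acss3 (chr10:106933517-107123668), a mitochondrial enzyme that prefers propionate, measured 69.9, 48.8, 70.5 and 73.5 CPM in WT and 41.7, 40.5, 36.4 and 48.1 CPM in Ucp1Δ/Δ mice. WT mouse 2 lay close to the Ucp1Δ/Δ mice and above all of them, and the log2FC was -0.66 ± 0.18 (95% interval -1.04 to -0.28, adjusted p = 0.0154). It shares 2436 exonic bases with Ppfia2 on the opposite strand, which had 5 counts over all mice.

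Acsm3 (chr7:119760923-119787513), a mitochondrial medium-chain synthetase, measured 45.4, 39.9, 43.4 and 35.5 CPM in WT and 10.6, 14.9, 11.3 and 26.6 CPM in Ucp1Δ/Δ mice. The WT mice were close together, and Ucp1Δ/Δ mouse 4 was the highest of its group without reaching them. The log2FC was -1.38 ± 0.26 (95% interval -1.93 to -0.83, adjusted p = 0.00115). Acsm3 shares 1962 exonic bases with Eri2 on the opposite strand, whose log2FC was -0.21 (adjusted p = 0.664). Acsf2 (chr11:94557102-94601871), a mitochondrial medium-chain enzyme, measured 39.8, 35.4, 25.7 and 20.3 CPM in WT and 20.5, 11.2, 16.3 and 21.0 CPM in Ucp1Δ/Δ mice. WT mouse 4 lay below the highest pair of Ucp1Δ/Δ mice, and the log2FC was -0.81 ± 0.26 (95% interval -1.36 to -0.27, adjusted p = 0.0331). The genes that share exonic bases with the synthetases were looked up after the values of the synthetases were seen.

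**Figure D2:**
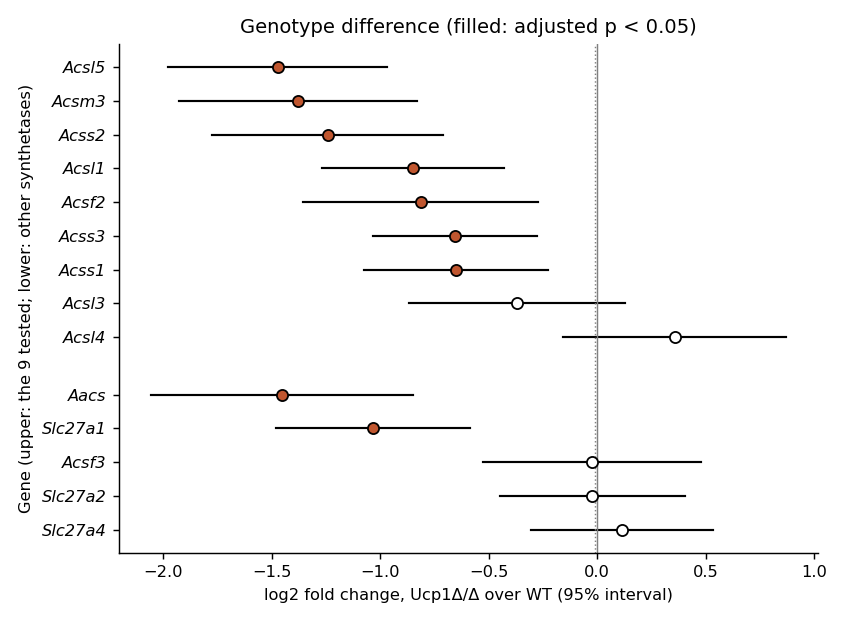
Log2FC, Ucp1Δ/Δ over WT, with its 95% interval for the 9 tested acyl-CoA synthetases (upper) and 5 other tested synthetases (lower), filled where the adjusted p is under 0.05, with the dotted line at the median of all genes. Acsl5 and Acsm3 lie farthest to the left of the upper genes, and the intervals of Acsl3 and Acsl4 cross 0.

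Calls for Acsl1, Acsl5, Acss2 and Acsm3 held when any 1 mouse was left out. Without Ucp1Δ/Δ mouse 2 or without Ucp1Δ/Δ mouse 3, only these 4 passed, and Acss1, Acss3 and Acsf2 did not (adjusted p 0.0939, 0.0582 and 0.123 without mouse 2, and 0.0967, 0.0607 and 0.0749 without mouse 3). Acss1 also failed without WT mouse 1 (adjusted p 0.0676) or Ucp1Δ/Δ mouse 4 (0.0803), and Acsf2 without WT mouse 1 (0.103) or WT mouse 2 (0.058). With scaling by total counts alone, Acss1, Acss3 and Acsf2 did not pass either. When only the 4 mice with the fewest skeletal muscle counts were fitted (WT 2 and 3, Ucp1Δ/Δ 1 and 3), Acsl1 (log2FC -0.87, adjusted p = 0.0136), Acsl5 (-1.79, 0.00106) and Acsm3 (-1.91, 0.00201) passed, and Acss2 did not (-0.84, 0.0695). With the muscle markers as a covariate all 7 passed.

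Because adipocyte markers were also lower in Ucp1Δ/Δ mice, each synthetase was set against them within a mouse, as log2 (CPM + 1) minus the mean log2 level of the 6 general adipocyte markers. That mean was 9.79 ± 0.21 in WT and 9.26 ± 0.28 in Ucp1Δ/Δ mice (SD, n = 4 each, difference -0.52, two-sided exact permutation p = 0.0571), and the groups overlapped. On this scale Acsl5 (difference -0.86) was lower and Acsl4 (0.90) was higher in every Ucp1Δ/Δ mouse than in every WT mouse. Each had an exact permutation p of 0.0286, the smallest 4 against 4 can give, and an adjusted p of 0.129 over 9 genes. The same marker mean is subtracted from every gene, so its difference of -0.52 raises all values on this scale. In CPM, Acsl4 overlapped between genotypes (log2FC 0.36, edgeR adjusted p = 0.338). Macrophage and stromal progenitor markers were higher in Ucp1Δ/Δ mice, and which cells carried the Acsl4 transcripts was not tested. Differences were -0.88 for Acsm3, -0.70 for Acss2, -0.33 for Acsl1, -0.24 for Acsf2, -0.16 for Acss1 and -0.11 for Acss3, and their groups overlapped. Acsl3 changed sign, to 0.19. None passed after adjustment. Because no exact p can be below 0.0286, a gene could pass only if most of the 9 genes separated completely. The permutation test therefore cannot decide whether the edgeR calls hold relative to the adipocyte markers.

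**Figure D3:**
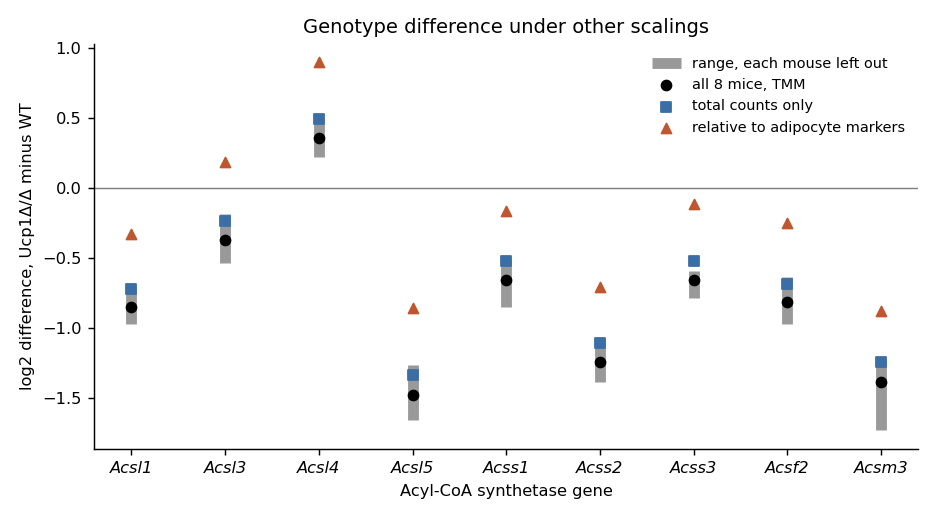
Difference between genotypes, Ucp1Δ/Δ minus WT, for the 9 tested synthetases: log2FC with all 8 mice and TMM (circles), the range when each mouse is left out (grey), log2FC with total counts only (squares), and the difference in log2 (CPM + 1) from the mean of 6 adipocyte markers (triangles). The triangles lie above the circles for every gene, cross 0 for Acsl3 and stay at -0.86 for Acsl5. The marker mean, subtracted from every gene, itself differed by -0.52, which raises all triangles.

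Ratios between family members were compared within each mouse as log2 ratios of CPM + 1, so that scaling between libraries nearly cancels, over 4 pairs. Differences in cell content, such as the macrophage marker levels given above, do not cancel. Acsl4 relative to Acsl1 was -6.74, -7.10, -6.65 and -6.27 in WT and -5.49, -4.82, -5.74 and -5.81 in Ucp1Δ/Δ mice. All Ucp1Δ/Δ ratios were above all WT ratios, by 1.23 on average (exact permutation p = 0.0286, adjusted p = 0.0571). This ratio includes the decrease already called for Acsl1 by itself (log2FC -0.85), whereas Acsl4 by itself did not pass (0.36). Acsl3 relative to Acsl4 was 1.63, 1.67, 1.72 and 1.47 in WT and 0.58, 0.36, 1.41 and 1.29 in Ucp1Δ/Δ mice. The WT ratios were close together and all above the Ucp1Δ/Δ ratios, with a difference of -0.71 (exact permutation p = 0.0286, adjusted p = 0.0571). Acsl5 relative to Acsl1 differed by -0.53 (exact permutation p = 0.0857, adjusted p = 0.114), and Acss2 relative to Acss1 by -0.54 (exact permutation p = 0.171, adjusted p = 0.171), and both overlapped between genotypes. With p-values adjusted over the pairs, no ratio passed 0.05. Both separated ratios had the smallest p that 4 against 4 can give, 0.0286. Given the other pairs, their adjusted p could not fall below 0.0571.

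**Figure D4:**
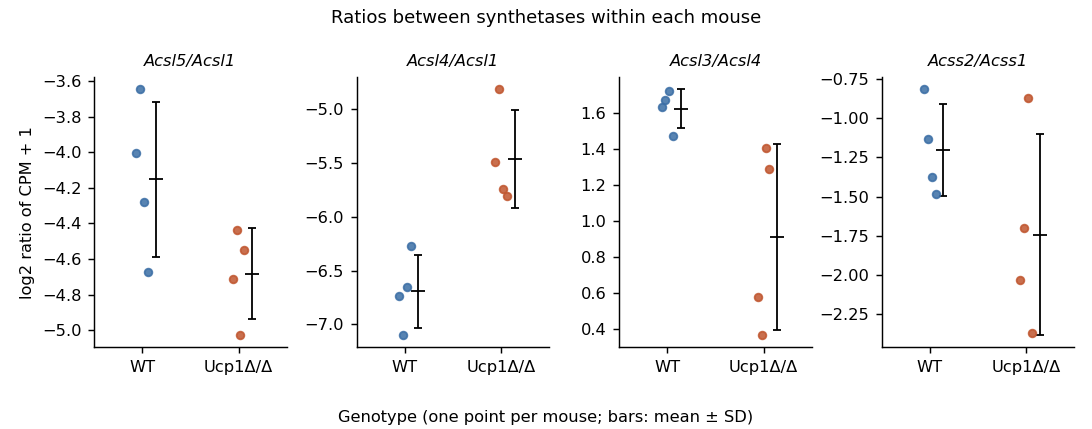
Log2 ratios of CPM + 1 between 4 pairs of synthetases, 1 point per mouse, with the mean and SD of 4 mice beside each group. The genotypes separate for Acsl4/Acsl1, higher in Ucp1Δ/Δ mice, and for Acsl3/Acsl4, lower in Ucp1Δ/Δ mice.

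Deviations from the genotype means were correlated over the 8 mice to describe which genes varied with Acsl1 and Acsl5 among 2091 genes with at least 50 CPM on average. Acsl1 varied most like Tmem143 (Pearson r = 0.942), Decr2, a peroxisomal enzyme of unsaturated fatty acid oxidation (0.918), and Mtus1 (0.917). Acsl5 varied most like Sephs2, a selenophosphate synthetase (0.967), Ucp1, the uncoupling protein of brown fat (0.963), and Psma6, a proteasome subunit (0.962). Among the synthetases the highest r was 0.732 for Acsl1 with Acsl3 and the lowest was -0.782 for Acsl4 with Acsf2. These values describe 8 points that share their library, depth and muscle content. The genes named with Acsl1 and Acsl5 were picked as the highest of 2091, and such picking raises r by itself. No link between these genes was tested. Ucp1 itself had a log2FC of -0.34 and did not pass the test (adjusted p = 0.481).

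Of 14 other acyl-CoA synthetases, 5 had enough counts and 2 of these were lower. Aacs, which activates acetoacetate in the cytosol, fell from 42.4 ± 13.7 to 15.4 ± 5.35 CPM (SD, n = 4 each, log2FC -1.45 ± 0.28 SE, adjusted p = 0.00167). Slc27a1, the fatty acid transport protein FATP1, fell from 84.4 ± 25 to 41.1 ± 6.23 CPM (log2FC -1.03 ± 0.21, adjusted p = 0.00221). Acsf3, Slc27a2 and Slc27a4 had log2FC of -0.03, -0.02 and 0.12 and did not pass, and the signs of the first and second of these changed with scaling. The median of the 5 was -0.025.

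Genes that supply or consume the same acyl-CoA were counted in lists. The list of cytosolic acetyl-CoA sources and uses, to which the product of ACSS2 belongs, had 8 of 9 tested genes lower and none higher, with a median log2FC of -1.13. Fasn, the fatty acid synthase, had a log2FC of -2.29 ± 0.23 (adjusted p = 4.21e-06), Slc25a1, the mitochondrial citrate carrier, -1.62 ± 0.17 (9.47e-06), and Acly, which splits citrate into acetyl-CoA, -1.89 ± 0.25 (5.30e-05). Among thioesterases, which hydrolyse acyl-CoA, and acyl-CoA binding proteins, 5 of 14 tested genes were lower and none was higher, with a median of -0.38. Acot1 showed a log2FC of -2.96 ± 0.44 (adjusted p = 0.000166), although reads of the closely related Acot genes may be split uncertainly between them. Acot11 fell from 48.9 ± 13.1 to 24.5 ± 7.37 CPM (SD, n = 4 each, adjusted p = 0.00874). Its groups overlapped (WT minimum 29.4 CPM, Ucp1Δ/Δ maximum 33.0 CPM), and it missed the threshold in 1 of 10 alternative settings. The count of lower genes in the acetyl-CoA list was 5 without Ucp1Δ/Δ mouse 2, and that of the thioesterase list was 2 without WT mouse 3, Ucp1Δ/Δ mouse 2 or Ucp1Δ/Δ mouse 4, and 3 without WT mouse 2, Ucp1Δ/Δ mouse 1 or Ucp1Δ/Δ mouse 3. In limma voom and without WT mouse 2, 1 gene of the thioesterase list was higher. Its lower genes numbered 2 with total counts or the strictest filter, 3 with the replicate block or the muscle covariate, and 1 in the 4 mice with the fewest muscle counts.

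In glycerolipid synthesis, a use of long-chain acyl-CoA, 4 of 12 tested genes were lower and none was higher, with a median of -0.40. Agpat2, which acylates lysophosphatidic acid, had a log2FC of -2.19 ± 0.29 (adjusted p = 5.55e-05), and Dgat2, which makes triglyceride, -1.25 ± 0.19 (0.000255). In the carnitine shuttle and beta-oxidation, 5 of 20 tested genes were lower and 1 was higher, with a median of -0.46. Slc25a20, the carnitine-acylcarnitine translocase, and Eci2, an enoyl-CoA isomerase, had log2FC of -1.01 ± 0.18 (adjusted p = 0.000739) and -1.03 ± 0.18 (0.000578). The gene that was higher was Cpt1a, the carnitine palmitoyltransferase of liver type, at 1.29 ± 0.22 (0.000653), from 7.51 ± 1.07 to 18.6 ± 2.14 CPM (SD, n = 4 each), although it missed the threshold in the 4 mice with the fewest muscle counts (log2FC 1.13, adjusted p = 0.0601). The oxidation list had 10 lower genes without WT mouse 4, 3 without Ucp1Δ/Δ mouse 2, 2 without Ucp1Δ/Δ mouse 4, 3 with total counts or in those 4 mice, 8 with the weakest filter, 9 with limma voom and 11 with DESeq2. The glycerolipid list had 2 lower genes without Ucp1Δ/Δ mouse 2 or in those 4 mice, and 1 gene higher in those 4 mice, in DESeq2, with the weakest filter and without any 1 WT mouse or without Ucp1Δ/Δ mouse 1.

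Among 10 genes of fatty acid supply, Pnpla2 was lower, and Fabp3, a fatty acid binding protein, and Gpihbp1, which anchors lipoprotein lipase to capillaries, were higher (log2FC 1.03 and 0.56, adjusted p = 0.00968 and 0.0234). Gpihbp1 did not pass without WT mouse 1, WT mouse 3, Ucp1Δ/Δ mouse 1 or Ucp1Δ/Δ mouse 3 (adjusted p 0.0612 to 0.0747) or with the weakest filter (0.0534). In the 4 mice with the fewest muscle counts neither Fabp3 (adjusted p = 0.0554) nor Gpihbp1 (0.0573) passed. DESeq2 called 4 genes of this list lower, and 2 were lower without Ucp1Δ/Δ mouse 1. Of 12 transcriptional regulators of these genes, 3 were lower and none was higher. These were Insig1, a sterol-responsive partner of SREBP processing (log2FC -1.77 ± 0.24, adjusted p = 9.36e-05), Ppara, a fatty acid-activated nuclear receptor (-1.10 ± 0.25, 0.00476), and Esrra, an estrogen-related receptor (-1.38 ± 0.32, 0.00611). In the 4 mice with the fewest muscle counts 1 regulator passed, and Ppara (adjusted p = 0.163) and Esrra (0.0547) did not. Srebf1, looked up after its values were known because of the motif search, had a log2FC of -0.51 ± 0.40 (0.414). General adipocyte markers were lower in 2 of 6 genes (Plin1 -0.91, Adipoq -0.82), and brown adipocyte markers in 3 of 8, with 1 of 8 higher. Macrophage markers were higher in 9 of 10 tested genes, among them Csf1r (2.83) and Lyz2 (3.67), and stromal progenitor markers in 5 of 6.

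**Figure D5:**
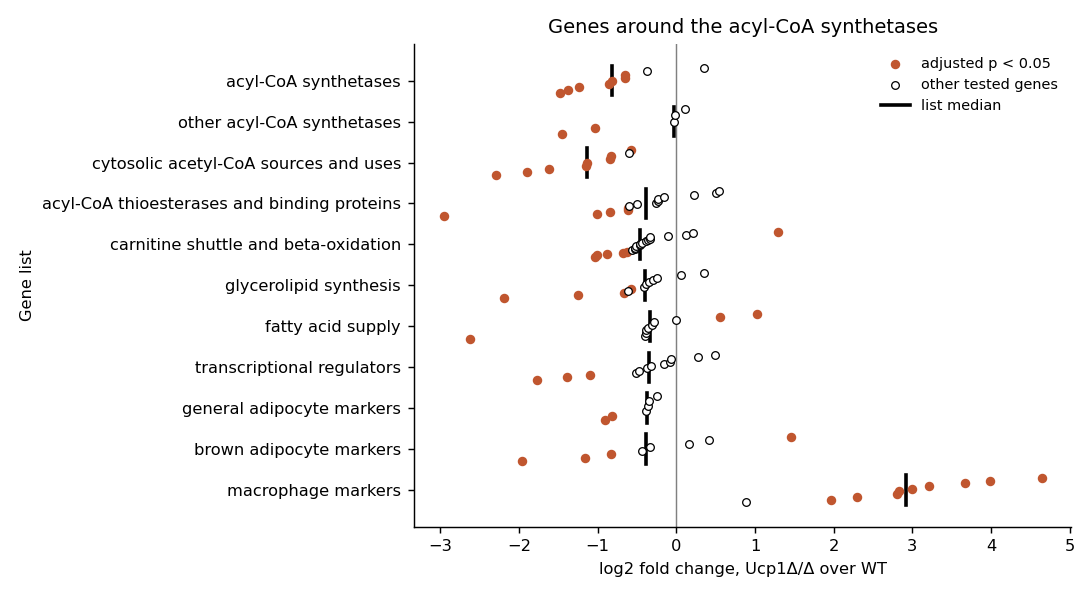
Log2FC, Ucp1Δ/Δ over WT, of the tested genes of each list, 1 point per gene, filled where the adjusted p is under 0.05, with the list median as a bar. The acyl-CoA synthetases (median -0.81) and the cytosolic acetyl-CoA list (median -1.13) lie to the left of the other metabolic lists, and macrophage markers lie to the right.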

How the data were processed

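BAT of 4 WT and 4 Ucp1Δ/Δ mice was profiled by single-end NEGEDIA digital mRNA-seq. The authors deposited whole-number counts per Ensembl gene, without normalization. The study's methods name bbduk, STAR to mm10, HTseq-counts and DESeq2, and the submitters' processing notes name Trimmomatic, HISAT2 and DESeq2, so the aligner behind the counts is uncertain. The strand setting and annotation release are not given in the sources used here. The authors also deposited log2 values, each the log2 of a count divided by 1 factor per mouse, plus 1, which served 1 alternative.

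Groups and replicate numbers came from the labels. Gene symbols (30934 of 31053 identifiers) and exons came from GENCODE M21 and windows from RefSeq. The members and lists were chosen with earlier results of these data known. Counts were filtered with filterByExpr (min.count 10, min.total.count 15), scaled by TMM and tested with edgeR 4.0.16 (quasi-likelihood, genotype only, R 4.3.3), with limma 3.58.1 and DESeq2 1.42.0 for alternatives. A gene differed at an adjusted p under 0.05. Ratios were compared by two-sided exact permutation tests. Named genes were all members, Pnpla2, up to 3 called genes per list and direction with the smallest adjusted p, all other tested synthetases, the 3 genes most like Acsl1 and Acsl5, and up to 2 markers per cell type. On simulated data modelled on this comparison (8810 genes), 94 genes were changed by 1 on the log2 scale and 93 by 2. Of these, 51.1% and 97.8% were recovered, with 5.44% false calls. The simulated share of changed genes was smaller than the 21.0% called in the data, so recovery there may differ. Same-numbered mice did not deviate together (r from -0.196 to 0.304), so the numbers were not treated as pairs.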

Additional observations from a re-analysis of the deposited data

Results flagged for a closer look

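Acss3 in WT mouse 2 stood apart from the other WT mice. Its log2 CPM was 5.64 against 6.15 to 6.22 in the other 3, a gap of 0.877 of the group's range, above the limit of 0.829 for 4 samples. Of 26 groups of 4 mice examined in this way, 1 stood apart, and about 1.3 would by chance.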

How the results depend on the processing

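Of 9 tested synthetases, 7 were called with DESeq2's size factors, with mitochondrially encoded genes removed, in DESeq2's Wald test, in limma voom with quality weights, under the weakest filter on low counts, with the replicate block and with the muscle covariate. Requiring 10 counts of all mice left 5 (Acss1 and Acsf2 lost, adjusted p 0.0519 and 0.051). Scaling by total counts, which moved the median log2FC of all genes to 0.13, left 4 (Acss1, Acss3 and Acsf2 lost, adjusted p 0.0708, 0.0569 and 0.0676), and lower genes then numbered 404 of 1882 called against 681 of 1872. The 4 mice with the fewest muscle counts, chosen after seeing the data as was the covariate, left 3. Leaving out each mouse gave 4 to 7, and no synthetase was higher in any of these settings. Genes differing numbered 1195 under the strictest filter, 1025 in those 4 mice, 1719 with the replicate block and 1345 to 2155 with each mouse left out. The 4-mouse fit has fewer samples and the strictest filter fewer genes, and the other causes were not tested.

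The Acsl3/Acsl4 ratio ranged from -0.88 to -0.53 with a mouse left out, where no p under 0.0571 is possible. With the replicate block no ratio could pass, as 4 pairs allow no p under 0.125. The same-numbered mice share only a number (mean r 0.0654), and the block changed no synthetase call. Acsl3 reached 0.19 against the adipocyte markers, an alternative added after seeing the data. The log2FC of Acsf3 turned to 0.11 with total counts, 0.041 under the strictest filter, 0.044 with the muscle covariate and 0.024 in the 4 mice, and ranged from -0.21 to 0.15 with a mouse left out. That of Slc27a2 turned to 0.11, 0.046 and 0.094 under the first 3 of these and 0.0016 with the replicate block, and ranged from -0.16 to 0.11 with a mouse left out. Acsl6 and 9 of 14 other synthetases had too few counts to be tested.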
